A study of Onthophagus taurus and Onthophagus nigriventris with 71 samples.

Results

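The data described here are 4 custom 2-colour arrays on which RNA from the head epidermis of large males of the horned beetle Onthophagus taurus was hybridised directly against RNA from the head epidermis of small males. They were chosen by their titles, and they are 4 of the 71 arrays of the series. Each array gave 1 log ratio for each of 3840 probes, with 0 missing values. The series describes large males as the horned fighter morph and small males as the hornless sneaker morph. The large males and the small males shared all other labels: wild-type animals that were not manipulated, reared in the laboratory, taken as pupae within 24 h of pupation, with the dissected dorsal head epidermis of 4 individuals pooled for each RNA. On arrays 2 and 4 the large male RNA carried Cy5, and on arrays 1 and 3 it carried Cy3. The same morph difference could also be computed from 8 other arrays, 4 of large male head and 4 of small male head, each against dorsal abdomen epidermis. A further 4 arrays held female head against abdomen.

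Beetle horns are outgrowths of the epidermis, with no internal joints or muscles of their own. In O. taurus, larval nutrition sets adult body size, and males above a size threshold grow a pair of long head horns while smaller males stay almost hornless. The horn primordium grows in the last larval stage, and the pupa then carries the folded-out horn while its epidermis secretes and remodels the adult cuticle. A head epidermis of a large male at this stage therefore includes the horn, and that of a small male has little of it. The pools are bulk tissue, so fewer cells of a type and less RNA per cell cannot be told apart in any ratio below.

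Positive ratios are likely large over small male, and negative ratios small over large. The values had already been turned to one direction, because arrays of opposite dye orientation correlated positively (r 0.329 to 0.514 across probes). The file prints 99.5% and 99.3% of the values of arrays 2 and 4 with more than 6 significant digits, and 0% of those of arrays 1 and 3. Over the 71 arrays, the 37 with the focal tissue in Cy5 ranged between 99.1% and 99.7%, and the 34 with the focal tissue in Cy3 were at 0%. Large male head thus took the place of the focal tissue on the direct arrays, but the numerator itself is not stated, and a joint turn would reverse every sign below. The probes have identifiers and no gene names. None of the 3840 identifiers (0) matched a table of 16956 O. taurus genes, so the markers of head epidermis, muscle, nerve and fat body were not analysed here, and no gene is named.

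The 4 direct arrays had medians between -0.05 and 0.02 on the log2 scale. Their spreads differed, with SDs over probes of 0.596, 0.711, 0.572 and 0.879 on arrays 1 to 4. Correlations between pairs of arrays lay between 0.254 and 0.514. The 2 arrays with large male RNA in Cy5 had the lowest of them (0.254), and the 2 with it in Cy3 had 0.406, within the range of the pairs of opposite orientation. Arrays 1 to 4 correlated with the morph difference computed against abdomen at r = 0.564, 0.423, 0.587 and 0.717. These correlations run across probes of the same platform, which are not independent replicates.

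Of the 3840 probes, 9 passed an adjusted p of 0.05 for a mean ratio different from 0, and all 9 were positive, with means between 1.69 and 4.43 on the log2 scale. This is 0.234% of the probes tested. Every array value of these probes was above 0, the lowest being 0.993 and the highest 4.98. No negative probe passed (0), and the smallest adjusted p of a negative probe was 0.0778. The test was limma's moderated test on the 4 arrays with a dye term, and p-values were adjusted by Benjamini-Hochberg over all probes. Unadjusted p-values under 0.05 were more even, with 349 positive and 345 negative probes, and at an adjusted p of 0.1 there were 61 positive and 15 negative ones. With 4 arrays, a test that flips the signs of whole arrays could not go below a two-sided p of 0.125.

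The count of calls changed when single arrays were left out. The fit of 4 arrays left 2 degrees of freedom per probe. A fit with an array left out has fewer, and its dye orientations are unbalanced. Leaving out array 1 gave 15 calls, of which 1 was among the 9. Without array 2 there were 137 calls and all 9 were kept, without array 3 there were 0 (416 at an unadjusted p under 0.05), and without array 4 there were 10 with 7 of the 9 kept. Without the dye term 44 probes passed, 36 positive and 8 negative. Fitted together with the 48 other O. taurus arrays, which lends the direct arrays the spread of those groups, 791 passed, 385 positive and 406 negative, including all 9. The labels do not say that pools came from separate rearings, so these p-values measure the spread between pools.

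The probe with the highest mean was OtL002-E05. Its log2 ratio was 4.98, 4.40, 4.02 and 4.31 on direct arrays 1 to 4, a mean of 4.43 ± 0.20 (SE, n = 4, limma adjusted p = 0.0176). No array stood apart from the others. Against abdomen, the same probe read 5.03, 4.52, 5.22 and 4.92 in large male head, against 0.28, 0.66, 0.31 and 1.41 in small male head. Those groups did not overlap, and their difference was 4.26 ± 0.22 (SE, limma adjusted p = 4.68e-18). In female head it read 0.18, 0.67, -0.14 and 0.37, within or just below the small male values. Females minus large males gave -4.65 ± 0.22 (adjusted p = 2.01e-19), and females minus small males gave -0.39 ± 0.22 (adjusted p = 0.637, both limma). This probe was thus close to the abdomen level in female and small male head and far above it in large male head. It kept its value without array 3 (4.67), but its adjusted p was then 0.0812.

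OtL006-A04 followed, with 3.74, 2.88, 3.23 and 3.89 on the direct arrays and a mean of 3.43 ± 0.22 (SE, n = 4, limma adjusted p = 0.0257). Against abdomen it read 2.72, 3.32, 4.03 and 3.14 in large male head, against -0.68, 0.47, 0.06 and -0.93 in small male head. In female head the values were -0.28, 0.20, 0.19 and -0.48. Female and small male values overlapped throughout, and every large male value lay above both. The adjusted p missed the threshold without array 1 (0.0657) or array 3 (0.186). The third probe by mean, at 3.85, 2.52, 3.05 and 3.59, followed OtL006-A04 across the series: the median gap between them over the other 67 arrays was 0.163, and their largest gap on the direct arrays was 0.359. The count of 9 probes need not be a count of 9 genes.

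**Figure D1:**
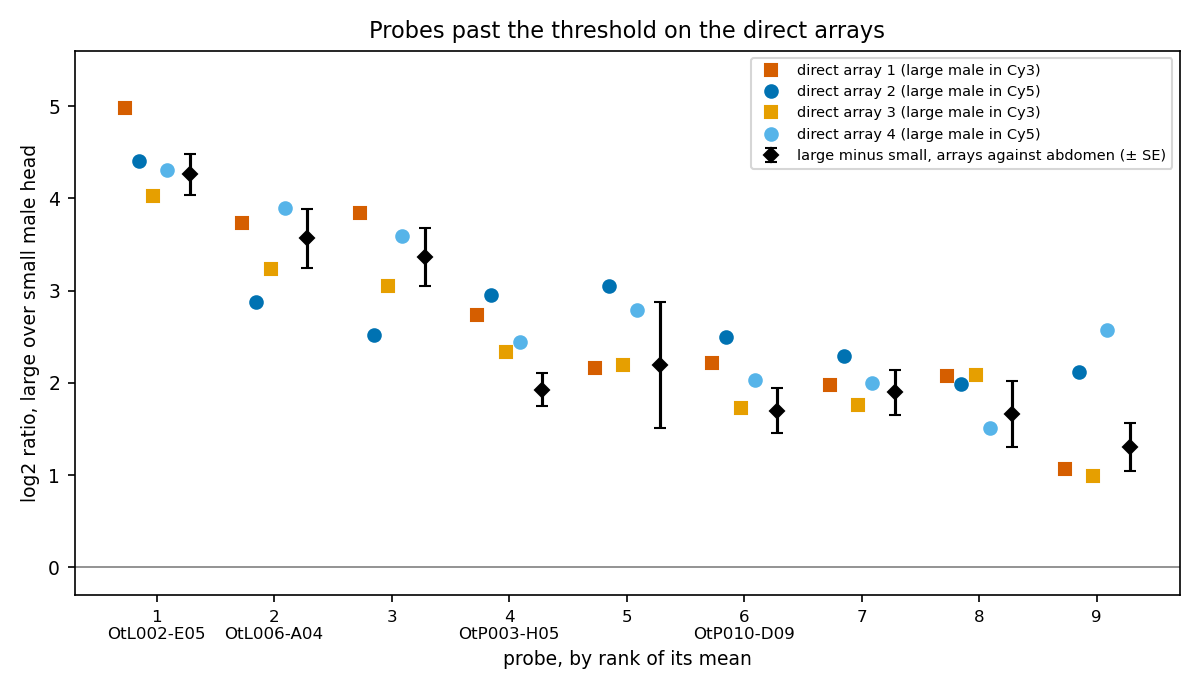
Log2 ratio of large over small male head for the 9 probes past the threshold, ordered by mean. Coloured points are the 4 direct arrays (squares with large male RNA in Cy3, circles in Cy5), and black diamonds with bars are the difference of large and small male head measured against abdomen, ± SE. All points lie above 0, between 0.993 and 4.98 for the direct arrays.

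The other 6 probes past the threshold had means between 1.69 and 2.62. OtP003-H05, the fourth by mean, read 2.73, 2.95, 2.33 and 2.45. Its level against abdomen was below 0 in every group: -0.39, -0.79, -0.60 and -0.52 in large male head, against -2.72, -2.41, -2.56 and -2.33 in small male head. Female head was lower still, at -3.41, -3.05, -3.29 and -2.74. A transcript that was scarcer in head than in abdomen in all 3 kinds of animal was therefore nearest to the abdomen level in large males. The fifth probe read 2.16, 3.05, 2.20 and 2.78 on the direct arrays, and its large and small male head values against abdomen were the only ones of the 9 that overlapped, where 345 of all probes (8.98%) had groups that did not overlap. It ranged between 2.59 and 5.52 in large male head and between 0.50 and 2.90 in small male head.

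OtP010-D09, the sixth, read 2.22, 2.50, 1.72 and 2.03. Unlike the first 3 probes it was well above the abdomen level in all 3 kinds of animal, with means of 4.08 ± 0.20 in large male head, 2.39 ± 0.12 in small male head and 2.86 ± 0.34 in female head (SD, n = 4 each). The seventh read 1.97, 2.29, 1.76 and 1.998, and its gap to OtP010-D09 had a median of 0.309 over the other 67 arrays. The eighth read 2.07, 1.98, 2.08 and 1.51. The ninth read 1.06, 2.12, 0.99 and 2.57, with both arrays of large male RNA in Cy5 above both arrays of it in Cy3, and it had the widest spread of the 9 (SD 0.784, against 0.217 for the seventh).

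All 9 probes also passed the test for large minus small male head against abdomen, with differences between 1.30 and 4.26, where 284 of the 3840 probes (7.40%) passed. Whether these male head arrays share RNA pools with the direct arrays is not stated. The values below that use male heads may thus not be independent of how the 9 were chosen. Females minus large males ran from -4.65 to -1.17, with all 9 past the threshold, where 181 probes (4.71%) passed in that direction. The contrasts with females are differences of head over abdomen ratios, so a difference between female and male abdomen would enter them. No array compared female with male head directly. None of the 9 (0) passed for females minus small males, where 1 of all probes (0.0260%), OtP011-A05, passed. Values of the 9 ran from -0.96 to 0.49. An unadjusted p under 0.05 was held by 2 of the 9, where 347 of all probes (9.04%) had one (limma). The single values were not always apart: in the fifth probe a small male value (2.90) was above 2 large male values (2.62 and 2.59), and in the eighth a female value (1.897) was above a large male value (1.74). A p that misses the threshold does not show that females and small males were alike.

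The same 9 probes were also read in other tissues. For large minus small male thorax the values ran from 0.34 to 1.41. Of the 9, 1 passed, where 1 of all probes (0.0260%) did: OtP010-D09, at 1.41 ± 0.24 (SE, limma adjusted p = 0.00371). The seventh probe, close to it across the series, had 1.17 (limma adjusted p = 0.0539). An unadjusted p under 0.05 in thorax was held by 2 of the 9, where 224 of all probes (5.83%) had one (limma). The difference between head and thorax, tested as such, ran from 0.28 to 3.92 and passed for 4 of the 9, where 21 of all probes (0.547%) passed. Those 4 were the first 4 by mean, and OtP010-D09, at 0.28 (limma adjusted p = 0.912), was not among them. Legs ran from -0.18 to 0.50, with 0 of the 9 past the threshold and 1 at an unadjusted p under 0.05, where 0 (0.00%) and 235 of all probes were. Brain, read against ganglia and not abdomen, ran from -1.09 to 0.10, with 0 of the 9 past the threshold and 2 at an unadjusted p under 0.05. Of all probes, 1 (0.0260%), OtP020-H12, passed there and 101 had an unadjusted p under 0.05 (limma). In O. nigriventris, a species whose males bear a thoracic horn, large minus small male thorax was positive for 7 of the 9 probes, where 1919 of all probes (50%) were, and ran from -0.47 to 2.40. No probe (0) of the 3840 passed there, and 3 of the 9 had an unadjusted p under 0.05, where 266 of all probes (6.93%) did (limma, 19 arrays). The seventh probe had the highest value, 2.40 (limma adjusted p = 0.176). Its direct mean in O. taurus head was 2.01, and the difference between these species and tissues was not tested. All probe names begin with Ot, and whether the probes read O. nigriventris RNA equally well was not tested.

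On size alone, 99 probes had a mean above 1, the log2 value of a 2-fold difference, and 68 a mean below -1. The positive side was steady across arrays: 95 of the 99 were positive on all 4 arrays, where 577 of all 3840 probes (15%) were. The negative side was not: 37 of the 68 were negative on all 4 arrays, where 619 of all probes (16.1%) were. Array 1 was the exception in most of the rest, with 27 of the 68 not negative there, against 2, 2 and 3 on arrays 2, 3 and 4. These sets were chosen by the same means, so the shares describe them and test nothing. Probes whose names begin OtL and OtP, 1920 each, gave 59 and 40 means above 1, and 35 and 33 below -1.

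Among the 29 probes with a mean above 2, 7 passed. The other 22 include 13 probes with means between 2.6 and 3 that read almost alike. On array 1 they ran from 3.49 to 3.86, on array 2 from 1.35 to 1.70, on array 3 from 1.83 to 2.38, and on array 4 from 3.52 to 4.11. Arrays 1 and 4, of opposite dye orientation, were high together and array 2 was lowest for every one of the 13. Their SD was 0.993 to 1.26 and their SE 0.402 to 0.508, and none passed, with adjusted p-values between 0.0971 and 0.104. Against abdomen all 13 passed, with large minus small differences between 2.53 and 3.48. Over the other 67 arrays, any pair of these probes correlated at 0.858 to 0.982 and these probes may not stand for separate genes. The 13 were picked after their values were seen.

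The negative side held no call, and the 2 probes of smallest p that were negative on all 4 arrays are given as values. OtP003-E10 read -1.10, -1.28, -1.07 and -1.84, a mean of -1.32 ± 0.15 (SE, n = 4, limma adjusted p = 0.0778). Against abdomen it was -0.65, -0.84, -1.04 and -0.76 in large male head, against 0.62, 0.15, -0.11 and 0.09 in small male head. In female head it was 0.61, 0.42, 0.58 and 0.59. Large male head was below the other groups on every array, and large minus small against abdomen passed at -1.01 ± 0.19 (adjusted p = 0.000422), as did females minus large males at 1.37 ± 0.19 (adjusted p = 2.24e-06, both limma).

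OtL017-D07 read -1.28, -1.52, -1.67 and -2.42, a mean of -1.72 ± 0.20 (SE, n = 4, limma adjusted p = 0.0778). Its large minus small difference against abdomen was -0.87 ± 0.30 and did not pass (limma adjusted p = 0.072). Without array 2 the adjusted p was 0.0208 for OtP003-E10 and 0.0165 for OtL017-D07, without array 1 it was 0.243 and 0.202 in the same order, and without array 3 or 4 it was 0.233 and 0.0595 for both.

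Many of the large negative ratios belonged to one kind of probe, seen in arrays the direct comparison did not use. In the 4 female head arrays, 64 of the 3840 probes (1.67%) had a mean log2 ratio of head over abdomen below -3. These 64 held 41 of the 68 probes with a direct mean below -1 (60.3%), and 1 of the 99 with a mean above 1 (1.01%), OtP003-H05. Without array 4 they held 40 of 90, and the probes below -3 on the mean of female head, thorax and legs held 29 of the 68. The lowest 38 of them, with female ratios from -5.40 to -4.14, had 29 direct means below -1. Their median direct ratio was 0.10 on array 1, -3.08 on array 2, -2.64 on array 3 and -3.35 on array 4. On array 1, 22 of the 38 were positive and 0 were below -2, whereas arrays 2, 3 and 4 had 27, 23 and 25 below -2 and 1, 2 and 2 positive. Array 1 shares its dye orientation with array 3, which was at -2.64, and the 2 arrays of the other orientation were both below -3. An effect of dye on the 38 probes as a set was not tested.

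The pattern faded as the female ratio neared 0. For 26 probes with a female ratio between -4 and -3, the medians on arrays 1 to 4 were -0.07, -1.41, -1.07 and -0.96. For 72 probes between -3 and -2 they were 0.17, -0.20, -0.26 and -0.43. The 1305 probes between -1 and 0 and the 1795 between 0 and 1 had medians between -0.08 and 0.07 on every array. At the other end, for 53 probes between 2 and 3, array 4 alone was high: its median was 1.27, against 0.04, 0.23 and -0.03 on arrays 1 to 3, and 27 of the 53 were above 1 there, against 7, 10 and 8. For 30 probes above 3 the medians were 0.13, 0.23, -0.14 and 0.25. The ranges were set after the data were seen, and the values carry no test.

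**Figure D2:**
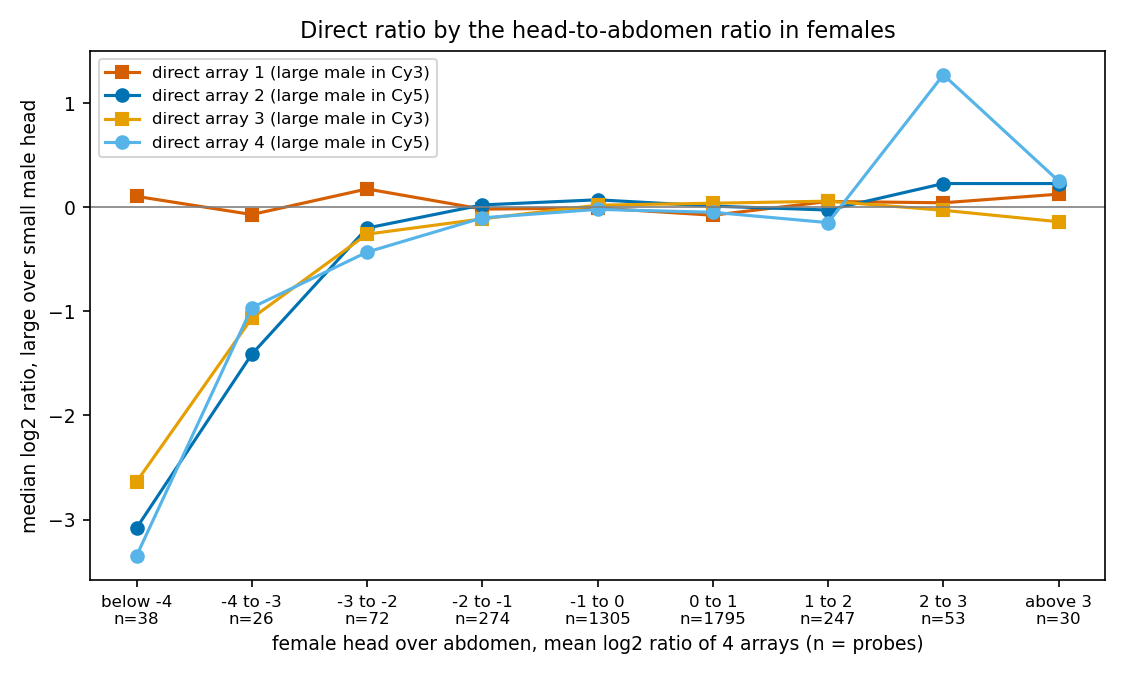
Median log2 ratio of large over small male head on each direct array, for probes sorted by their mean female head over abdomen log2 ratio (4 arrays). Below -4 the medians of arrays 2, 3 and 4 lie between -3.35 and -2.64 while array 1 is at 0.10, and between 2 and 3 array 4 is at 1.27.

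The head arrays against abdomen gave values for each morph, number by number. For the 38 probes, the median ratio of head over abdomen was -3.91, -4.57, -4.58 and -5.20 on large male arrays 1 to 4, against -4.15, -2.63, -4.05 and -3.17 on the small male arrays. Small male heads were nearest to the abdomen level on arrays 2 and 4, and number 3 gave a large direct ratio with a small difference against abdomen. The direct medians of 0.10, -3.08, -2.64 and -3.35 thus stand beside median large minus small differences against abdomen of 0.26, -2.12, -0.40 and -2.31 for the numbers 1 to 4. In the likely direction, transcripts much scarcer in female head than in abdomen were thus more abundant in some small male head pools than in large male head pools.

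OtL017-E05 shows the pattern in one probe. It read -0.65 on array 1, against -3.36, -3.62 and -3.62 on arrays 2 to 4, a mean of -2.81 ± 0.50 (SE, n = 4, limma adjusted p = 0.104). Against abdomen it was -3.95, -4.21, -5.30 and -5.22 in large male head, against -3.18, -1.71, -2.85 and -2.24 in small male head, and between -4.55 and -4.30 in female head. Large and small male head did not overlap, and the difference against abdomen passed at -2.18 ± 0.44 (SE, limma adjusted p = 0.000926). Array 1 stood apart from the other direct arrays for this probe.

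OtP020-G02 differed from it. It read -2.42, -1.70, -1.61 and -2.77 on the direct arrays, a mean of -2.12 ± 0.25 (SE, n = 4, limma adjusted p = 0.0778), with array 1 among the lower values. Against abdomen it was -3.33, -3.70, -3.59 and -4.04 in large male head, against -1.23, -1.91, -1.50 and -1.81 in small male head. In female head it was -0.28, -1.52, -1.51 and -1.04, above the large males on every array. Here large males were lowest, and females minus small males gave 0.53 ± 0.41 (SE, limma adjusted p = 0.845), whereas for OtL017-E05 females were close to large males.

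**Figure D3:**
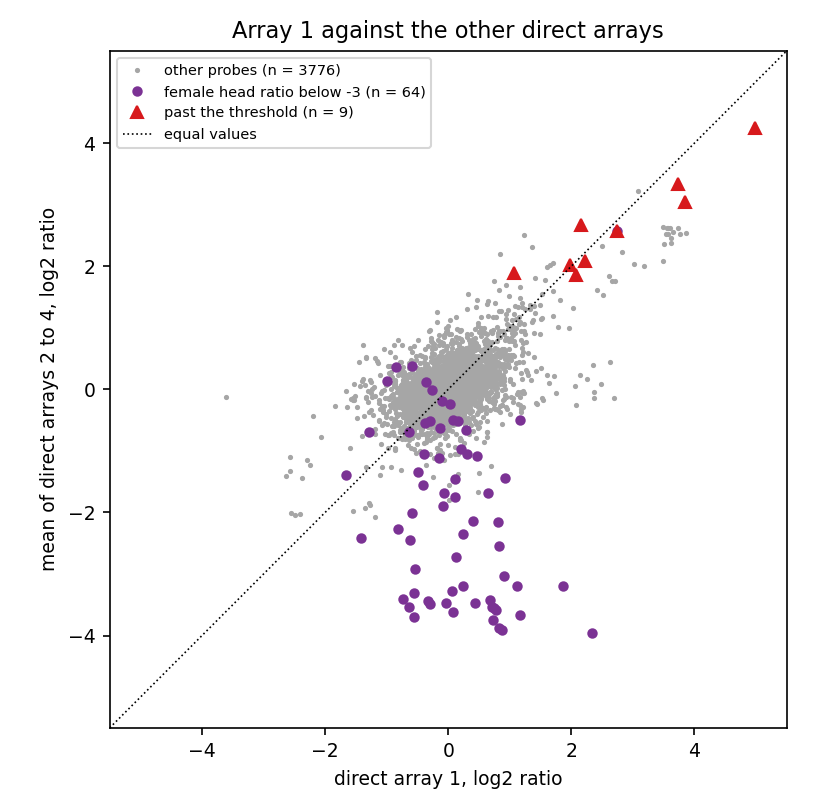
Log2 ratio on direct array 1 (horizontal) against the mean of direct arrays 2 to 4 (vertical), 1 point per probe. The 9 probes past the threshold (triangles) lie near the line of equal values, and most of the 64 probes with a female head ratio below -3 (purple) lie near 0 on array 1 and below 0 on the other arrays.

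Leaving array 1 out gave mostly negative calls. The 15 probes then past the threshold were 1 positive and 14 negative, and all 14 negative ones had a female head ratio below -3, 13 of them below -4. Without array 2, by contrast, 18 of the 137 calls were negative and 1 of those 18 had a female ratio below -3. Of the 406 negative calls made with the 48 other arrays in the fit, 46 did. Among the 41 probes with a direct mean below -1 and a female ratio below -3, 17 were negative on all 4 arrays, against 20 of the 27 with a higher female ratio.

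The direct means and the differences against abdomen correlated at r = 0.793 across the 3840 probes, and at 0.784 without the 64 probes of lowest female ratio. The spread over probes was similar, with an SD of 0.505 for the direct means and 0.493 for the differences against abdomen. The median SE was 0.156 for the direct means, from the fit of 4 arrays alone. It was 0.198 for the differences against abdomen, from the fit of 48 arrays. The first belongs to a mean and the second to a difference of group means, so they do not rank the arrays by noise. The counts of calls, 9 and 284, come from unlike fits, of 4 arrays alone and of 48 arrays. With the 48 arrays in both fits they were 791 and 284, and with only the arrays compared in each fit they were 9 and 111. Leaving out direct array 4 lowered the correlation to 0.658.

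**Figure D4:**
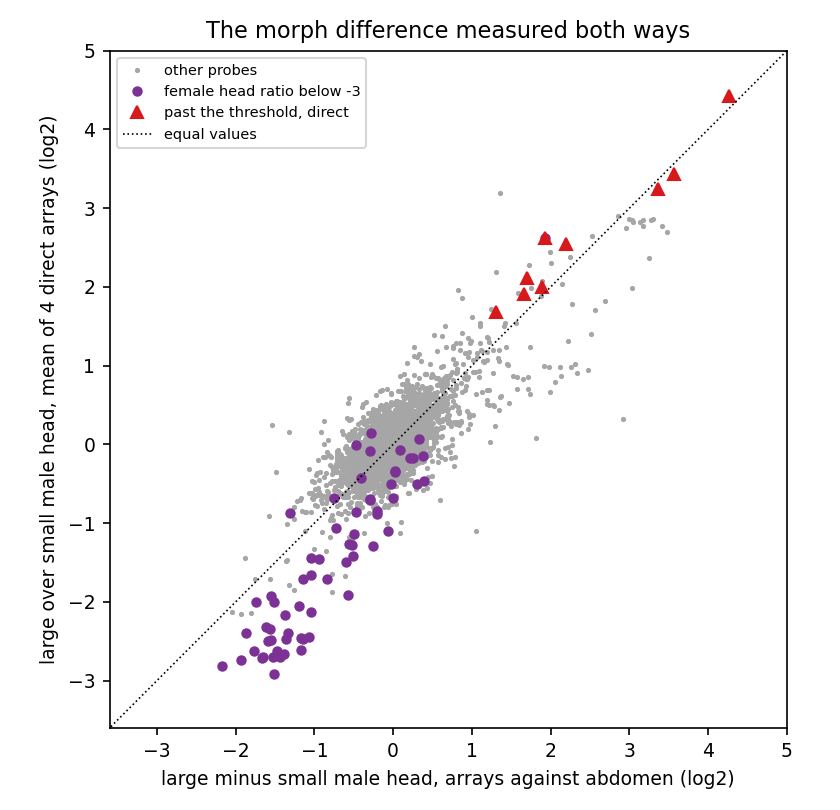
Mean log2 ratio of large over small male head on the 4 direct arrays (vertical) against the difference of large and small male head measured against abdomen (horizontal), 1 point per probe, r = 0.793. The 9 probes past the threshold (triangles) have a median absolute gap of 0.253 from the line of equal values, against 0.173 for all probes. The 64 probes with a female head ratio below -3 (purple) lie mostly below that line, with a median gap of -0.69.

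Of the 133 probes that passed as positive against abdomen, 126, 110, 125 and 122 were positive on direct arrays 1 to 4, where 46.6%, 51.7%, 51.3% and 44.8% of all probes were. Their medians were 0.995, 0.84, 0.90 and 1.88, and 93 of the 133 were positive on all 4 arrays, where 577 of all probes (15%) were. Of the 151 that passed as negative, 130, 130, 132 and 145 were negative on direct arrays 1 to 4, where 53.4%, 48.3%, 48.7% and 55.2% of all probes were. On all 4 arrays, 100 of the 151 were negative, where 619 of all probes (16.1%) were. The medians of the 151 were smaller, at -0.32, -0.43, -0.39 and -0.84, and array 4 had the largest median on both sides. Among the 151, 20 had a female head ratio below -3 and a median direct mean of -2.55, against -0.46 for the other 131.

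Only 2 of the 284 probes had a direct mean of the opposite sign, and both direct means were near 0. OtL015-F01 was 0.06 on the direct arrays and -0.56 against abdomen, and OtP019-G12 was 0.10 on the direct arrays and -0.58 against abdomen. Neither difference between the measurements passed the test.

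In log ratios, the direct value less the value against abdomen equals the difference between large and small male abdomen, if each pool is the same on both kinds of array. No probe (0) passed the test of this gap over the 12 male head arrays, 69 had an unadjusted p under 0.05, and the smallest adjusted p was 0.995 (limma). The median gap over all probes was 0.01, with an SD of 0.321 over probes and a median SE of 0.278. For the 64 probes of lowest female ratio the median gap was -0.69. Among probes whose direct values all lay outside the range of large minus small differences that the head arrays allow, those of smallest p, none of which passed, were OtP003-H05 at 0.69 ± 0.20, OtP018-F10 at 0.63 ± 0.19 and OtL018-G03 at -0.53 ± 0.21 (SE). For the 9 called probes the gap ran from -0.13 to 0.69. These were chosen by their direct values, which enter the gap, so its sign tests nothing here.

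Whether the direct and the other head arrays share RNA pools is not stated. Deviations of direct array 1 from its group mean correlated with those of small male head array 1 at r = -0.265 across probes, and numbers 2, 3 and 4 gave -0.428, -0.241 and -0.423. For each direct array, the same-numbered small male array was the one with the most negative r, and small male RNA is the denominator of the direct ratio. With large male head arrays the same-number values were 0.252, 0.159, 0.055 and 0.006. The labels do not say that a number marks one pool, so the measurements against abdomen may not be independent of the direct ones.

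**Figure D5:**
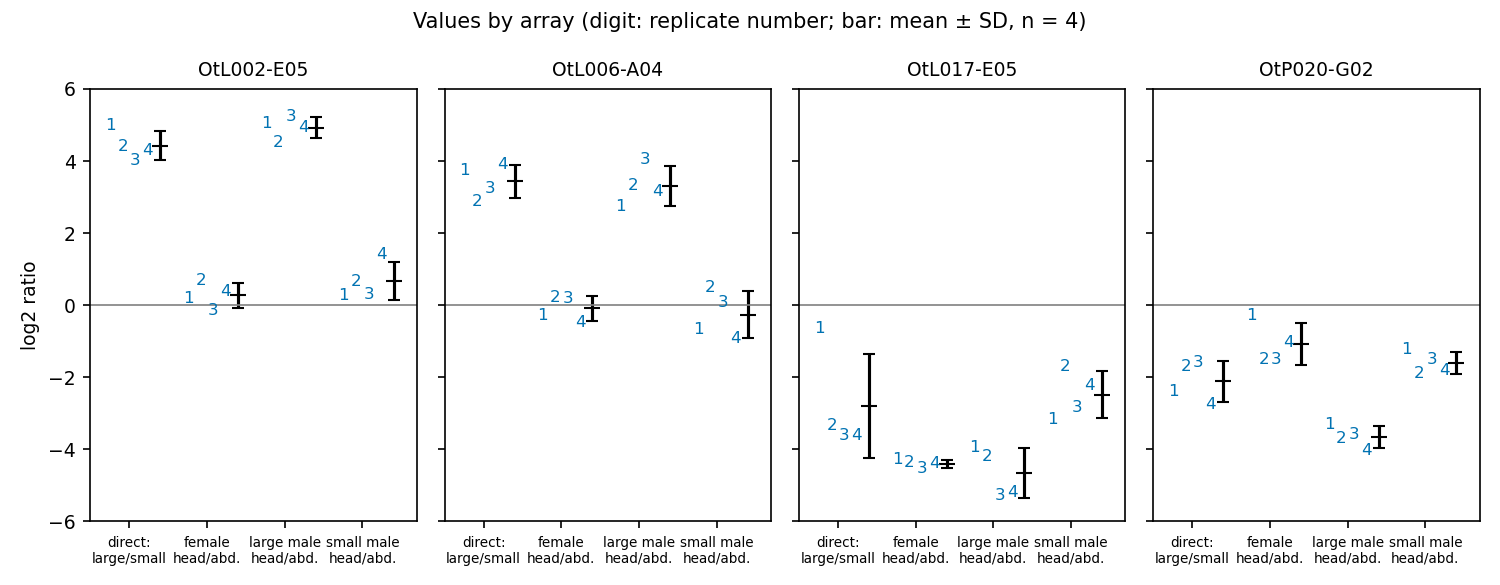
Log2 ratios of 4 probes on the direct arrays and on the female, large male and small male head arrays against abdomen. Digits are replicate numbers and bars are mean ± SD (n = 4). OtL002-E05 and OtL006-A04 are high in large male head only, OtL017-E05 is at -0.65 on direct array 1 and between -3.62 and -3.36 on the others, and OtP020-G02 is lowest in large male head.

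The dye orientations were also compared with each other. No probe (0) passed for the dye term of the direct arrays, 149 had an unadjusted p under 0.05, and the smallest adjusted p was 0.996 (limma). The means of the Cy5 and the Cy3 pairs of arrays correlated at r = 0.619 across probes. The probes of smallest p were OtP012-A04, at 0.92 and 1.12 with large male RNA in Cy5, against -0.74 and -0.96 with it in Cy3, and OtP007-E09, at 0.35 and 0.44 in Cy5, against -0.98 and -1.19 in Cy3. In the other direction OtP002-F10 was at 0.17 and -0.59 in Cy5, against 1.28 and 1.26 in Cy3, and OtL012-D01 at -1.37 and -0.69 in Cy5, against 0.27 and 0.31 in Cy3. Without array 2, 44 probes passed for the dye term.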

How the data were processed

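The authors deposited 1 table of normalised log ratios. It was read as log2, the base limma uses, since limma is the tool that the submitters' processing notes name. The background correction, the normalisation within arrays and the numerator are not given in the sources used. Per the labels, total RNA was purified on columns, copied by T7 transcription and labelled with Cy3 or Cy5. Values were used as deposited and tested with limma version 3.58.1 (lmFit, eBayes) under R version 4.3.3, with a dye term of 0.5 for Cy5 and -0.5 for Cy3 and a threshold of 0.05 on the Benjamini-Hochberg adjusted p over 3840 probes. The 4 direct arrays were fitted alone, the 48 O. taurus arrays against abdomen or ganglia together, the gap between both measurements on the 12 male head arrays, and the 19 O. nigriventris arrays alone.

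In each comparison the probes named were the 2 largest positive and the 2 largest negative ones past the threshold, with 1 sign on all arrays or groups that did not overlap. Where none passed, the 2 of smallest p in that direction were named, and for the gap only 1 negative probe met this rule. A single probe that passed a whole comparison was named too. The arrays, comparisons and sets were chosen with earlier results of these data known. No 2 arrays were identical (0 arrays), and the highest correlation was 0.949. Replicate numbers were not taken as pairs in the main fits, as the labels give them no meaning. Deviations of same-numbered large and small male head arrays correlated at -0.168 to 0.093. Those of same-numbered direct and small male head arrays correlated at -0.428 to -0.241. The main fit of the gap treats these arrays as independent, which may not hold. The test was also run on simulated arrays with known changes, and the outcome is not reported here. The number of arrays limits the precision. Figures were drawn with matplotlib 3.10.9.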

Additional observations from a re-analysis of the deposited data

Results flagged for a closer look

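In 3 of 61 sets of 4 values, 1 array lay far from the others by Dixon's ratio, and chance flags about 1 set in 20. For OtL017-E05, direct array 1 was at -0.65, against -3.62 to -3.36 on the other 3 direct arrays. For OtL017-D07, female head array 4 was at -1.82, against -2.98 to -2.79 on the other female head arrays. For OtP003-E10, female head array 2 was at 0.42, against 0.58 to 0.61.

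Both probes with the highest direct means differed between tissues in their large minus small male contrast, tested as a difference of contrasts. The fit was that of 48 arrays, without the direct arrays. Both probes were chosen by their direct values, and whether the male head arrays share RNA pools with the direct arrays is not stated. These tests are therefore not taken as independent of that choice. OtL002-E05 was 3.92 higher in head than in thorax (limma adjusted p = 9.19e-12) and 3.76 higher in head than in legs (limma adjusted p = 3.55e-11). OtL006-A04 was 2.98 higher in head than in thorax (limma adjusted p = 0.000124) and 3.28 higher in head than in legs (limma adjusted p = 1.19e-05). Head minus thorax passed for 4 of the 9 called probes and for 21 of all probes (0.547%). For head minus legs, all 9 called probes had an unadjusted p under 0.05 (limma), so a difference there was not special to these probes. The share of all probes for head minus legs is not given here.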

How the results depend on the processing

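The 9 calls of the direct arrays became 44 without the dye term, 76 at an adjusted p of 0.1 and 791 when fitted with the 48 other O. taurus arrays, and 0 to 137 with 1 array left out (0 without array 3, 10 without array 4, 15 without array 1, 137 without array 2). With arrays centred, scaled or weighted and with a robust prior they were 8, 10, 9 and 11. OtP003-E10 and OtL017-D07 passed without the dye term (0.0443 and 0.0393) and with the 48 arrays (1.08e-09 and 1.11e-07). The dye term went from 0 calls to 0 to 44 with 1 array left out. The 284 calls against abdomen became 76 with arrays scaled, where OtL017-E05 (-1.79) and OtP020-G02 (-1.72) missed the threshold, 111 with the 8 male head arrays alone, and 203 to 308 with 1 array left out. With the replicate number as a replicate block they were 310. The gap between the measurements gave 0 calls under each alternative, including the replicate block and differences taken within each number, except that leaving out 1 array gave 0 to 1 (1 without direct array 1, OtL011-D06). The replicate block, run for the 4 probes named against abdomen and the 3 named for the gap, changed no call of theirs. Leaving out 1 array reversed 3 values that had not passed: OtL017-D07 for females minus large males (-0.12 to 0.21, lowest without female head array 4), OtL006-A04 for females minus small males (-0.079 to 0.40, lowest without small male head array 4) and OtP003-E10 for large minus small male thorax (-0.28 to 0.0017, highest without large male thorax array 4).

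With 1 direct array left out, the probes with a mean above 1 numbered 94 to 128 and those below -1 numbered 63 to 90. The mean of the medians of the remaining arrays, for the 38 probes of lowest female ratio, was then -3.02 to -1.87. For probes picked instead on female head, thorax and legs together, which need not be the same 38, the mean of the array medians was -1.27. For the 38 probes on all direct arrays it was -2.24. The correlation of both measurements was 0.658 to 0.817. These alternatives, the differences within each number and the dye term with an array left out were added after the data were seen. The causes of these changes were not tested.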
